A study of Bos taurus with 6 samples.

Results

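Synaptotagmins, SNARE proteins and their partners drive the fusion of vesicles with membranes. Their genes were selected from the expression tables by symbol, as the entries named SYT, SYTL, STX, STXBP, VAMP, CPLX, SYN or SNAP followed by the number of a family member. The selection held 63 of the 32183 listed genes and 62 distinct names, since VAMP7 was listed at 2 positions. By their known roles, 23 entries were classed as neuronal, 31 as general and 9 were left without a class.

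In vesicle fusion, a VAMP on the vesicle pairs with a syntaxin and a SNAP25-type protein on the target membrane, and the helical bundle they form pulls the membranes together. Munc18 proteins hold and template the syntaxins, complexins clamp the half-zipped bundle, and synaptotagmins are vesicle proteins of which many trigger fusion when they bind calcium. Neurons and endocrine cells use a dedicated set for this (STX1A, SNAP25, VAMP2, SYT1), whereas epithelial and other cells secrete and deliver membrane proteins with broadly expressed relatives such as STX4, SNAP23, VAMP3 and VAMP8.

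The cells were rumen epithelial primary cells (REPC), from 1 male Holstein calf, 2 weeks old and still on a milk replacer diet. Their RNA was sequenced from 3 cultures kept for 24 h with 5 mM butyrate, a short-chain fatty acid of rumen fermentation that inhibits histone deacetylases, and from 3 control cultures. Because all cultures came from 1 calf, the p-values measure only the spread between these cultures. Levels are FPKM, fragments mapped to a gene scaled by transcript length and by library size, and levels of different genes are set side by side only on this scale.

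The FPKM of a culture summed to 678035 to 681912 in control and to 619401 to 629037 after butyrate, with 16051 to 16193 and 17306 to 17510 genes above 0. Of the epithelial markers, KRT5 (366 to 422 FPKM in control), KRT8 (1309 to 1416) and CDH1 (48.4 to 51.4) were high in the control cultures, while EPCAM was at 0.406 to 0.737 and rose by 2.44 on the log2 scale (limma, Benjamini-Hochberg adjusted p = 5.58e-05). VIM (2411 to 2530 FPKM in control) and COL1A1 (1109 to 1173), which fibroblasts express strongly, were high as well. These are bulk measurements, in which a change in the number of cells of a type and a change in RNA per cell cannot be told apart.

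In the control cultures the fusion genes were mostly those of general membrane traffic. Of the 31 general entries, 26 had a mean of at least 1 FPKM and 21 a mean of at least 10, against 8 and 1 of the 23 neuronal entries. The 3 highest were STX8, an endosomal syntaxin (105 to 109 FPKM), STX2 (71.0 to 77.7) and VAMP8 (66.5 to 81.2). The neuronal gene with the highest level was VAMP2 (14.2 to 17.1 FPKM). After butyrate, 12 neuronal entries had a mean of at least 1 FPKM and 3 a mean of at least 10, and for the general entries these counts were 26 and 18. The summed FPKM of the neuronal entries went from 36.1 to 42.8 in control to 82.4 to 96.0 after butyrate.

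**Figure D1:**
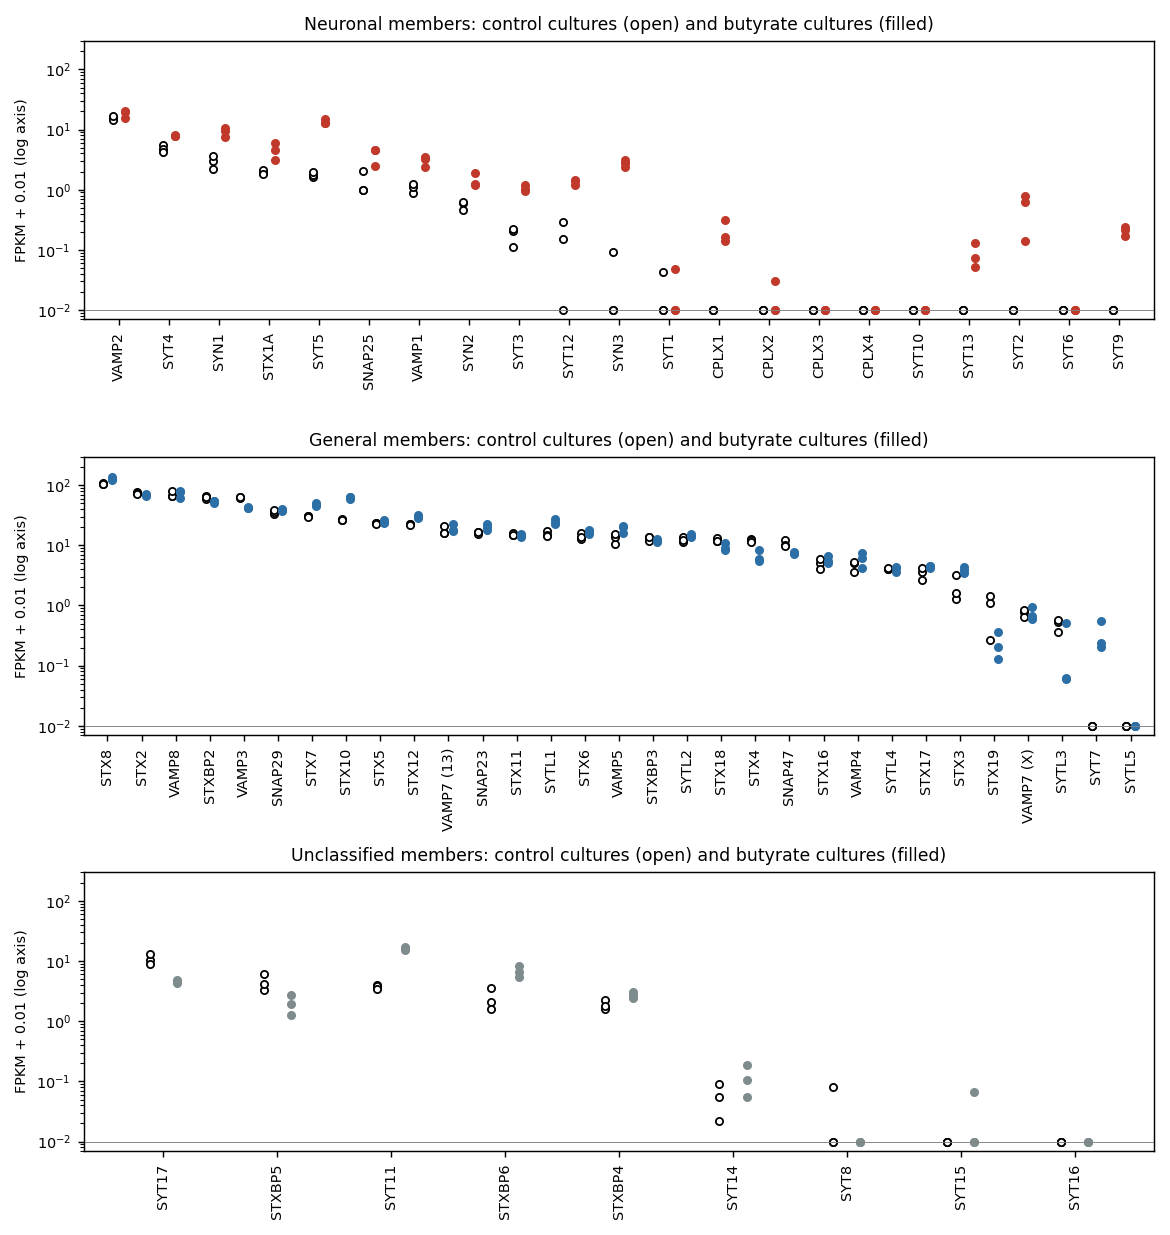
FPKM + 0.01 of 61 of the 63 members on log axes in the 3 control cultures (open circles) and the 3 butyrate cultures (filled circles), by class and in order of the control mean, where the grey line marks an FPKM of 0. Most filled circles of the neuronal members lie above their open circles, 6 members (CPLX3, CPLX4, SYT6, SYT10, SYT16 and SYTL5) lie on the line in all cultures, and the general members shift less.

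The effect of butyrate was tested with limma on log2(FPKM + 0.1) over 15813 genes, those whose mean over the 6 cultures reached 0.1 FPKM. On this scale the change of a gene with a low level comes out too small. The words rose and fell stand for a Benjamini-Hochberg adjusted p under 0.05 over all genes tested. A DEG had, beyond this, a log2 fold change above 2 or below -2 and passed 0.05 after Bonferroni correction. Of the 63 entries 49 passed the filter, and 25 of these rose, 7 fell and 17 did not pass the test, where 32.5% of all genes tested rose and 25.9% fell. SYT5, SYT11 and SYN3 were DEGs, all higher after butyrate, where 2.46% of all genes tested were DEGs in that direction. By limma 0 members were DEGs in the other direction (1.51% of all genes tested), and 8 members were lower at an unadjusted p under 0.05. Among the 45 members with a control mean of at least 0.1 FPKM, 21 rose, 7 fell and 17 did not pass. Of these 45, 2 (SYT5 and SYT11) were DEGs, as SYN3 passed the filter only through its butyrate values.

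The classes, drawn up with earlier results of these data known, moved differently. Among the 11 neuronal members with a control mean of at least 0.1 FPKM, 10 rose, 0 fell and VAMP2 did not pass the test, with a median log2 fold change of 1.43. Among the 29 general members above the same control level, 8 rose, 5 fell and 16 did not pass, with a median of 0.12, where the median of all genes tested was 0.10. The filter also let through 4 members, SYN3, SYT2 and SYT7 among them, whose control means were under 0.1 FPKM and which could be tested only because they were higher after butyrate. With them, the medians were 1.54 over 14 neuronal members and 0.12 over 30 general members, a difference of 1.42. With each butyrate culture set against the control mean, the SD of these class medians over the 3 butyrate cultures was 0.11 for the neuronal and 0.05 for the general members. The spread between the control cultures is not part of these SDs. Of the 5 unclassified members tested, 3 rose and 2 fell. The classes also differed in level. The median of the control means was 0.0404 FPKM over all neuronal entries and 13.4 FPKM over all general entries. No comparison with genes of matched level was made.

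**Figure D2:**
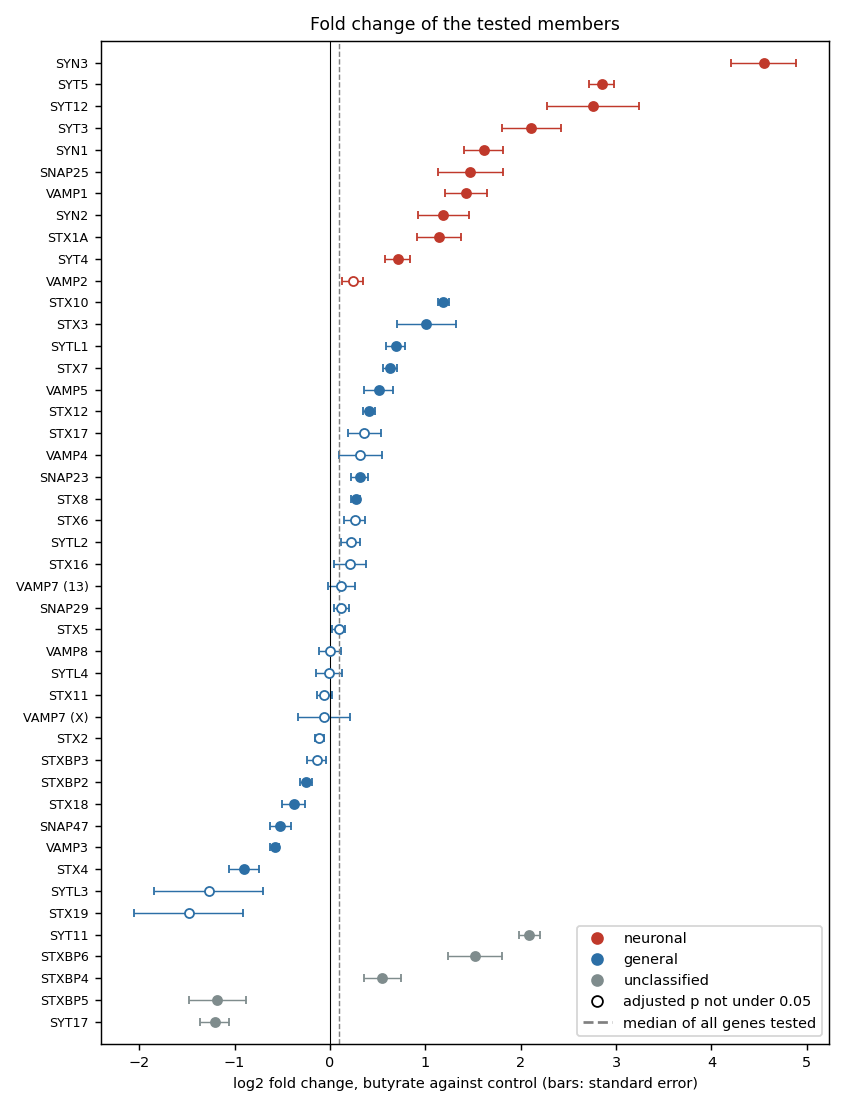
Log2 fold change of butyrate against control with its standard error for the tested members described here that had a control value above 0, by class, where open circles mark an adjusted p not under 0.05 and the dashed line marks the median of all genes tested (0.10). The 11 neuronal members shown lie between 0.24 (VAMP2) and 4.55 (SYN3), and the general members between -1.48 (STX19) and 1.19 (STX10).

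SYT5, a calcium-binding synaptotagmin of neuronal and endocrine vesicles at chr18:62700736-62707444 (UMD3.1), was at 1.63, 1.77 and 1.94 FPKM in the control cultures and at 12.7, 14.8 and 12.9 FPKM after butyrate. All butyrate cultures were far above all controls. The means were 1.78 ± 0.156 and 13.5 ± 1.19 FPKM (SD, n = 3 each), a log2 fold change of 2.85 ± 0.13 (SE, limma, Benjamini-Hochberg adjusted p = 4.39e-07). The confidence bounds in the files correspond to about 12 to 14 fragments in each control culture and 107 to 142 after butyrate.

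SYT11, at chr3:14926783-14946170, is a synaptotagmin that does not bind calcium in the usual way and works in membrane retrieval. It was at 4.02, 3.80 and 3.42 FPKM in control and at 16.0, 17.3 and 15.5 FPKM after butyrate, without overlap. The log2 fold change was 2.09 ± 0.11 (SE, limma, Benjamini-Hochberg adjusted p = 8.32e-07). With a pseudocount of 1 it was 1.87, under the DEG fold change. SYT4, its closest relative in the family, was at 5.58, 4.68 and 4.27 FPKM in control and at 7.74, 8.24 and 7.91 after butyrate. It rose by 0.71 ± 0.13 (SE, limma, Benjamini-Hochberg adjusted p = 0.00128), again without overlap.

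SYT3 and SYT12 were low in control. SYT3, a calcium sensor of high affinity, was at 0.196, 0.211 and 0.103 FPKM in control and at 0.939, 1.18 and 1.02 FPKM after butyrate, a log2 fold change of 2.11 ± 0.31 (SE, limma, Benjamini-Hochberg adjusted p = 4.42e-04). SYT12, which lacks the residues for calcium binding, was at 0, 0.142 and 0.285 FPKM in control and at 1.38, 1.42 and 1.18 FPKM after butyrate, a log2 fold change of 2.76 ± 0.48 (SE, limma, Benjamini-Hochberg adjusted p = 0.00122). Neither gene's groups overlapped, and each control value rested on 2 fragments or fewer.

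The fast calcium sensors of synaptic transmission, SYT1, SYT2 and SYT9, stayed low. SYT1, the sensor of most forebrain synapses, was listed at 0, 0.0335 and 0 FPKM in control and at 0, 0 and 0.0377 FPKM after butyrate. SYT2 was listed at 0 in all controls and at 0.604, 0.778 and 0.130 FPKM after butyrate, from at most 4 fragments (limma, Benjamini-Hochberg adjusted p = 0.00621). SYT9 was likewise listed at 0 in all controls and at 0.162, 0.230 and 0.203 FPKM after butyrate, below the filter. SYT7, a broadly expressed sensor of slow release and lysosome fusion, was listed at 0 in all controls and at 0.229, 0.534 and 0.197 FPKM after butyrate (limma, Benjamini-Hochberg adjusted p = 0.0061), and did not pass with quantile normalization (adjusted p = 0.0654). Without butyrate culture 2, SYT7 was below the filter and could not be tested.

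In all, 13 members were listed at 0 in every control culture. Of these, 5 (SYT2, SYT7, SYT9, SYT13 and CPLX1) were above 0 in every butyrate culture. Over all 14213 genes listed at 0 in the controls this share was 3.22%. In the butyrate cultures SYT7 rested on about 5 to 18 fragments, and SYT2, SYT9, SYT13 and CPLX1 on 6 or fewer. SYT13 reached 0.063, 0.122 and 0.042 FPKM and was not tested. SYT6, SYT10 and SYT16 were listed at 0 in all 6 cultures, SYT14 stayed at 0.0122 to 0.177 FPKM, and SYT8 and SYT15 were above 0 in 1 culture each.

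SYT17, a synaptotagmin relative without a transmembrane segment, went the other way. It was at 10.4, 13.1 and 8.97 FPKM in control and at 4.60, 4.29 and 4.81 FPKM after butyrate. The groups did not overlap and the gene fell by 1.21 ± 0.15 on the log2 scale (SE, limma, Benjamini-Hochberg adjusted p = 1.35e-04). Among the tested synaptotagmins it was the only one that fell, and in control it had the highest level of the family. After butyrate SYT11 and SYT5 stood at the top.

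Among the target-membrane syntaxins, STX1A, the syntaxin of synaptic and endocrine release, was at 1.88, 2.12 and 1.81 FPKM in control and at 3.14, 4.52 and 5.86 FPKM after butyrate. The control values were close together and the butyrate values were spread but all higher. The log2 fold change was 1.14 ± 0.23 (SE, limma, Benjamini-Hochberg adjusted p = 0.00253).

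STX4 (chr25:27412932-27431628), the syntaxin of general delivery to the basolateral membrane, was at 12.7, 12.1 and 11.4 FPKM in control and at 5.89, 8.25 and 5.44 FPKM after butyrate. The groups did not overlap and STX4 fell by 0.90 ± 0.16 on the log2 scale (SE, limma, Benjamini-Hochberg adjusted p = 0.00112). Even so, it stayed above STX1A in every culture except butyrate culture 3, where STX1A was at 5.86 and STX4 at 5.44 FPKM.

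STX3, the syntaxin of the apical membrane, was at 1.29, 3.25 and 1.58 FPKM in control and at 3.50, 3.84 and 4.41 FPKM after butyrate. Control culture 2 lay close to the butyrate values. The log2 fold change was 1.01 ± 0.31 (SE, limma, Benjamini-Hochberg adjusted p = 0.0209), and the call was lost without control culture 1 (0.75, adjusted p = 0.067), control culture 3 (0.89, adjusted p = 0.0662), butyrate culture 2 (1.02, adjusted p = 0.0628) or butyrate culture 3 (0.92, adjusted p = 0.0768). It was also lost with quantile normalization (0.75, adjusted p = 0.0597) and without limma's variance trend (1.01, adjusted p = 0.0544). The gene contains MRPL16, whose mean went from 161 to 70.6 FPKM. The other syntaxins of this group, STX2, STX11 and STX19, did not pass the test. STX19 was at 0.254 to 1.42 FPKM in control and 0.119 to 0.353 after butyrate (log2 fold change -1.48, limma, Benjamini-Hochberg adjusted p = 0.0518), and passed without control culture 3 (-2.12, adjusted p = 0.00391).

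SNAP25, the neuronal partner of the syntaxins, was at 0.997, 0.992 and 2.07 FPKM in control and at 2.46, 4.54 and 4.58 FPKM after butyrate. The highest control and the lowest butyrate culture were close, but the groups did not overlap. The log2 fold change was 1.47 ± 0.34 (SE, limma, Benjamini-Hochberg adjusted p = 0.00544). SNAP23, its counterpart in other cells, was at 16.9, 15.6 and 16.6 FPKM in control and at 18.2, 22.6 and 20.2 FPKM after butyrate, a rise of 0.31 ± 0.09 (SE, limma, Benjamini-Hochberg adjusted p = 0.02). Its call was lost without control culture 2 (0.27, adjusted p = 0.0674), butyrate culture 2 (0.23, adjusted p = 0.0623) or butyrate culture 3 (0.31, adjusted p = 0.0527). SNAP47 fell by 0.52 on the log2 scale (limma, Benjamini-Hochberg adjusted p = 0.00358), and SNAP29, which overlaps PRODH (mean 8.03 FPKM in control and 54.1 after butyrate), did not pass the test.

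The vesicle-side SNAREs were split within the neuronal pair. VAMP1 was at 0.861, 1.10 and 1.22 FPKM in control and at 3.24, 3.49 and 2.39 FPKM after butyrate, without overlap, and rose by 1.43 ± 0.22 (SE, limma, Benjamini-Hochberg adjusted p = 5.83e-04). VAMP2, the main synaptic vesicle SNARE, was at 15.5, 14.2 and 17.1 FPKM in control and at 15.8, 20.1 and 19.4 FPKM after butyrate. Its groups overlapped and its log2 fold change of 0.24 ± 0.11 did not pass the test (SE, limma, Benjamini-Hochberg adjusted p = 0.102), though it did without butyrate culture 1 (0.35, adjusted p = 0.0245) and after rescaling to TPM (0.36, adjusted p = 0.0229).

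VAMP3 (cellubrevin), the SNARE of recycling endosomes, was at 63.5, 62.0 and 63.3 FPKM in control and at 41.6, 43.0 and 41.8 FPKM after butyrate. It fell by 0.58 ± 0.05 on the log2 scale (SE, limma, Benjamini-Hochberg adjusted p = 1.56e-05). VAMP8 (endobrevin), which serves late endosomes and the secretion of granules, was at 66.5, 66.5 and 81.2 FPKM in control and at 60.3, 78.7 and 75.9 FPKM after butyrate. The groups overlapped and the log2 fold change was 0.00 ± 0.12 (SE, limma, Benjamini-Hochberg adjusted p = 0.997). VAMP5 rose by 0.51 (limma, Benjamini-Hochberg adjusted p = 0.0188) and lost the call without control culture 1 (0.36, adjusted p = 0.0521), butyrate culture 2 (0.48, adjusted p = 0.0706) or butyrate culture 3 (0.43, adjusted p = 0.0756), and without limma's variance trend (0.51, adjusted p = 0.0578). VAMP4 and both entries of VAMP7 did not pass, and the VAMP7 entries, on chromosomes 13 and X, changed by 0.11 ± 0.14 when summed (SE, limma, Benjamini-Hochberg adjusted p = 0.514).

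Of the 2 Munc18 genes of general traffic, 1 fell and 1 did not pass the test. STXBP2 (Munc18-2), the epithelial and leukocyte form, was at 58.6, 66.7 and 64.0 FPKM in control and at 54.1, 50.7 and 54.0 FPKM after butyrate. It fell by 0.25 ± 0.06 on the log2 scale (SE, limma, Benjamini-Hochberg adjusted p = 0.00859), and did not pass after rescaling to TPM (-0.13, adjusted p = 0.112) or with quantile normalization (-0.17, adjusted p = 0.0639). STXBP3 (Munc18-3), the widespread form that binds STX4, was at 13.9, 11.8 and 14.0 FPKM in control and at 12.5, 12.2 and 11.3 FPKM after butyrate, with overlapping groups, and did not pass the test (-0.14 ± 0.10, SE, limma, Benjamini-Hochberg adjusted p = 0.253).

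**Figure D3:**
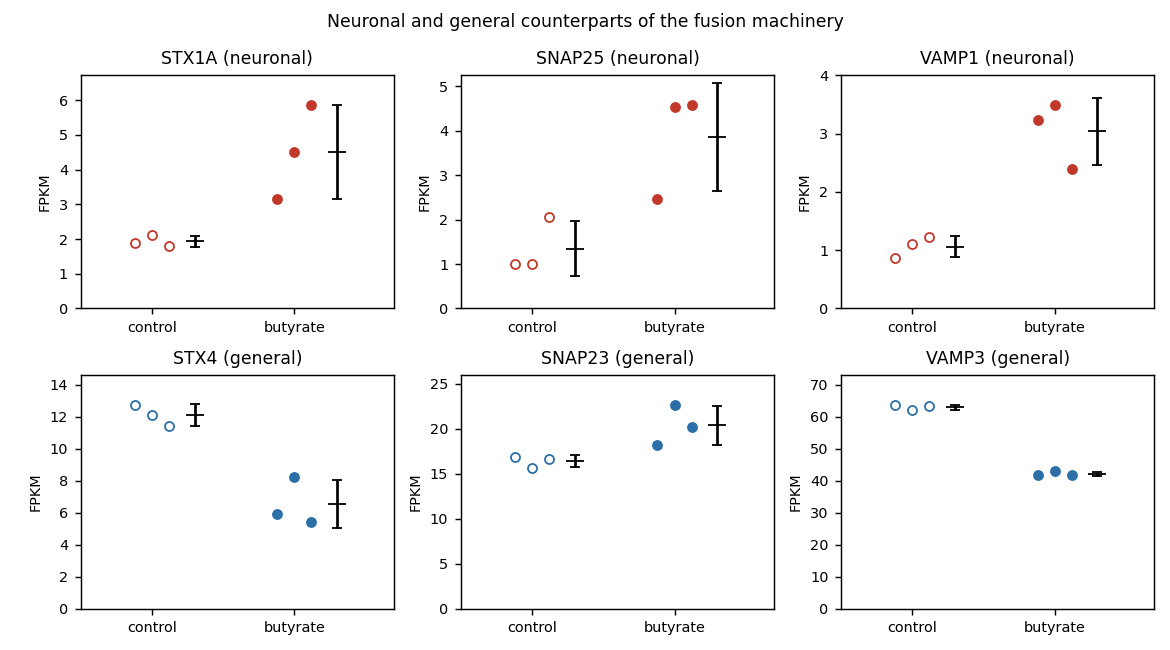
FPKM in each culture of a neuronal gene (top row: STX1A, SNAP25, VAMP1) and a general counterpart (bottom row: STX4, SNAP23, VAMP3), on linear axes from 0 that differ between panels, with mean and SD (n = 3) beside the points. The 3 neuronal genes are higher in all butyrate cultures than in all controls, whereas STX4 and VAMP3 are lower and SNAP23 is higher. VAMP2, VAMP8 and STX2, which did not pass the test, and STX3, which rose, are not shown.

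Within each of 3 of these families the neuronal members held a larger share of the summed FPKM after butyrate, and a smaller share than the general members in both groups. The share of STX1A in its sum with STX2, STX3, STX4, STX11 and STX19 was 1.72%, 1.95% and 1.80% in control and 3.32%, 4.38% and 6.02% after butyrate. The share of SNAP25 in the sum of SNAP25 and SNAP23 went from 7.54 ± 3.08% to 15.7 ± 3.40% (SD, n = 3 each), with control culture 3 (11.1%) just under butyrate culture 1 (11.9%). The share of VAMP1 and VAMP2 beside VAMP3 and VAMP8 went from 11.0 ± 0.352% to 15.9 ± 0.320% (SD, n = 3 each). The groups did not overlap in any of the 3 families. These shares combine the changes given above and were not tested separately.

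**Figure D4:**
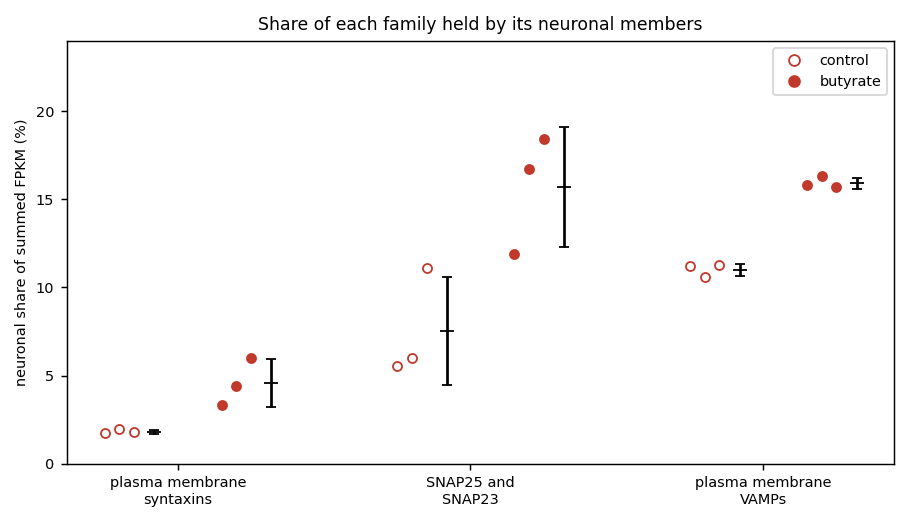
Percent of each family's summed FPKM that came from its neuronal members in the 3 control (open) and 3 butyrate cultures (filled), with mean and SD (n = 3). In all 3 families the butyrate cultures lie above the controls, and no culture exceeds 18.4%.

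The synapsins, which coat synaptic vesicles and tether them to the cytoskeleton, all rose. SYN3 (chr5:71474782-71961617) was at 0, 0.0813 and 0 FPKM in control and at 2.77, 3.14 and 2.39 FPKM after butyrate, on about 37 to 57 fragments. The log2 fold change was 4.55 ± 0.34 (SE, limma, Benjamini-Hochberg adjusted p = 7.26e-06, Bonferroni-adjusted p = 0.00994). SYN3 kept the Benjamini-Hochberg call with each culture left out in turn. By limma it was no DEG without control culture 1 (Bonferroni-adjusted p = 0.0648), control culture 3 (adjusted p = 0.0535), butyrate culture 1 (adjusted p = 0.287), butyrate culture 2 (adjusted p = 0.342) or butyrate culture 3 (adjusted p = 0.207).

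SYN1, the main synapsin of mature neurons, was at 2.94, 2.22 and 3.65 FPKM in control and at 10.5, 9.28 and 7.48 FPKM after butyrate, a log2 fold change of 1.61 ± 0.20 (SE, limma, Benjamini-Hochberg adjusted p = 1.56e-04). SYN2 was at 0.602, 0.456 and 0.624 FPKM in control and at 1.89, 1.22 and 1.19 FPKM after butyrate, a log2 fold change of 1.19 ± 0.27 (SE, limma, Benjamini-Hochberg adjusted p = 0.00508). Neither gene's groups overlapped, and SYN2 did not pass with quantile normalization (0.64, adjusted p = 0.08).

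Each synapsin gene has a TIMP gene, which encodes an inhibitor of metalloproteinases, inside its bounds. TIMP3, inside SYN3, had a mean of 949 FPKM in control and 2211 after butyrate. TIMP1, inside SYN1, went from 567 to 498, and TIMP4, inside SYN2, from 0.735 to 1.00 FPKM. TIMP3 moved with SYN3, while TIMP1 was lower where SYN1 was higher, and the part of fragments from these genes in the synapsin values was not tested. In all, 23 members overlap another entry, of which 14 overlap one with a mean of at least 1 FPKM in either group.

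The complexins were at or near 0. CPLX1 was listed at 0 in all controls and at 0.300, 0.131 and 0.151 FPKM after butyrate, on 1 to 2 fragments. CPLX2 was above 0 in 1 butyrate culture only (0.020 FPKM), and CPLX3 and CPLX4 were listed at 0 throughout. None of the complexins passed the filter.

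Of the 9 syntaxins of the Golgi, endoplasmic reticulum and endosomes, 4 rose, STX18 fell and 4 did not pass. Over all genes tested 32.5% rose and 25.9% fell. STX10, which serves traffic from endosomes to the trans-Golgi network, was at 26.1, 27.8 and 26.5 FPKM in control and at 58.1, 62.6 and 63.3 FPKM after butyrate. Its rise of 1.19 ± 0.06 (SE, limma, Benjamini-Hochberg adjusted p = 8.35e-07) was the largest among the general members with a control level above 0. The endosomal syntaxins STX7 (0.63), STX12 (0.41) and STX8 (0.27) rose by less on the log2 scale. STX18, a syntaxin of the endoplasmic reticulum, fell by 0.38 on the log2 scale (limma, Benjamini-Hochberg adjusted p = 0.0212), and its call was lost without control culture 2 (-0.32, adjusted p = 0.0759), butyrate culture 2 (-0.30, adjusted p = 0.0717) or butyrate culture 3 (-0.35, adjusted p = 0.0664), and after rescaling to TPM (-0.25, adjusted p = 0.0966). STX5, STX6, STX16 and STX17 changed by 0.09 to 0.36 and did not pass. STX6 passed without control culture 2 (0.36, adjusted p = 0.0249) and STX17 without control culture 3 (0.49, adjusted p = 0.0433).

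The synaptotagmin-like proteins bind Rab27 on secretory granules and tether them to the cell cortex. SYTL1 rose from 14.1 to 17.0 FPKM in control to 22.4 to 27.5 FPKM after butyrate (log2 fold change 0.69, limma, Benjamini-Hochberg adjusted p = 5.13e-04). SYTL2 (11.3 to 15.6 FPKM over all cultures), SYTL3 (0.0494 to 0.571) and SYTL4 (3.53 to 4.43) had overlapping groups and did not pass. SYTL2 passed without control culture 1 (0.30, adjusted p = 0.0387) and SYTL3 without butyrate culture 3 (-1.93, adjusted p = 0.00548), and SYTL5 was listed at 0 in all cultures.

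The other syntaxin-binding proteins include inhibitors of SNARE assembly. STXBP5 (tomosyn-1), which takes the place of a VAMP in the bundle, was at 6.03, 3.36 and 4.22 FPKM in control and at 2.75, 1.25 and 1.93 FPKM after butyrate, and fell by 1.18 ± 0.30 on the log2 scale (SE, limma, Benjamini-Hochberg adjusted p = 0.00947). STXBP6 (amisyn), which carries a similar motif, was at 2.10, 3.53 and 1.60 FPKM in control and at 5.49, 6.64 and 8.33 FPKM after butyrate, and rose by 1.52 ± 0.28 (SE, limma, Benjamini-Hochberg adjusted p = 0.00158). The 2 inhibitors thus moved in opposite directions, each without overlap. STXBP4, a partner of STX4, rose by 0.55 (limma, Benjamini-Hochberg adjusted p = 0.0372), a call that was lost without control culture 2 (0.45, adjusted p = 0.108), control culture 3 (0.52, adjusted p = 0.0866), butyrate culture 1 (0.46, adjusted p = 0.118) or butyrate culture 3 (0.55, adjusted p = 0.087). It was also lost with quantile normalization (0.24, adjusted p = 0.311) and without the filter on low values (0.55, adjusted p = 0.0571).

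Other genes of vesicle fusion were followed in 6 lists, with 56 genes tested. Of these, 23 rose, 10 fell and 23 did not pass, where 32.5% of all genes tested rose and 25.9% fell. All 6 of the 14 synaptic vesicle membrane proteins that could be tested rose, and 4 were DEGs: SLC17A7, the vesicular glutamate transporter of the cortex (log2 fold change 6.34), SV2A, a vesicle glycoprotein that binds synaptotagmin (4.23), SYNGR3 (2.55) and SYNGR1 (2.25). SYP, the synaptic vesicle protein synaptophysin, was at 0.0403 FPKM or lower in all cultures. Of the 14 tested among 24 priming and active zone genes, 9 rose and 5 did not pass, with the largest changes in RIMS3 (4.17) and RAB3B (3.27). SV2A, SYNPR, RIMS3 and RIMS4 had control means under 0.1 FPKM and passed the filter through their butyrate values.

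The lists of general machinery changed less, and their counts stand beside 32.5% of all genes tested that rose and 25.9% that fell. Of 12 other SNAREs, which mostly serve the Golgi and the endoplasmic reticulum, 2 rose and 5 fell, with the largest changes in GOSR1 and BNIP1 (both -0.85). Of 9 SM proteins and disassembly factors, 3 fell and 6 did not pass, NAPG (-0.86) and NAPB (-0.58, limma, Benjamini-Hochberg adjusted p = 0.113) having the largest changes. Of the 9 exocyst genes, which encode the complex that tethers vesicles to the plasma membrane, 4 rose, EXOC6B (1.17) and EXOC4 (0.66) the most. Of 9 entries of other membrane proteins with C2 domains, 6 could be tested. Of these, 2 rose and 2 fell, with the largest changes in ESYT3 (1.32) and DYSF (0.78), which rose. ESYT1 (-0.61) and MYOF (-0.66) fell, and the list summed to 169 to 176 FPKM in control and 121 to 128 after butyrate.

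**Figure D5:**
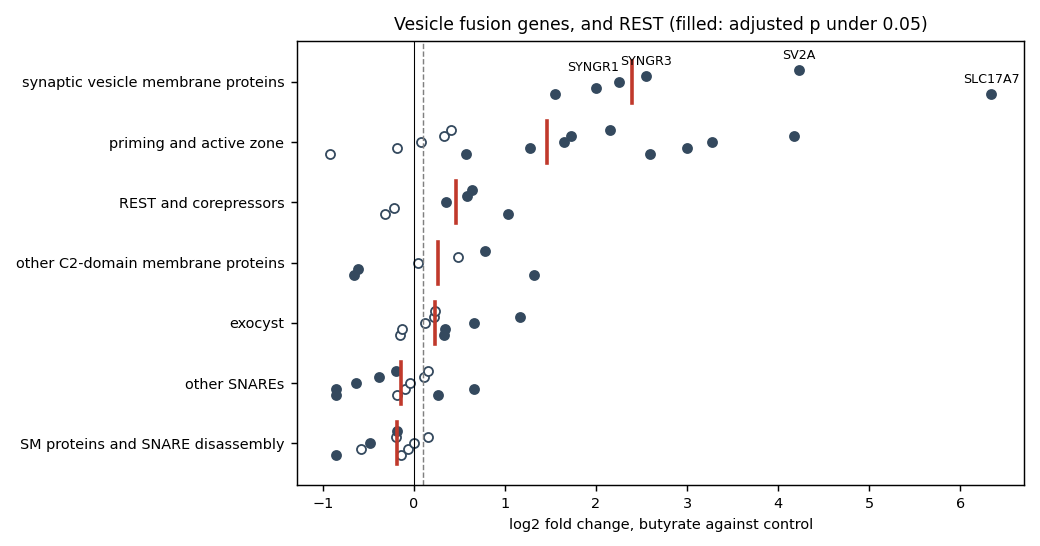
Log2 fold change of butyrate against control for the tested genes of these 6 lists and of REST with its corepressors, 1 circle per gene, filled where the adjusted p was under 0.05, with the list median as a red line and the median of all genes tested (0.10) as a dashed line. The list medians run from -0.19 for SM proteins and SNARE disassembly to 2.40 for synaptic vesicle membrane proteins, and the 4 named genes are DEGs.

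REST, a repressor that binds near many neuronal genes, was at 2.27, 2.80 and 2.42 FPKM in control and at 2.13, 1.88 and 1.92 FPKM after butyrate. The groups did not overlap, and the log2 fold change of -0.32 ± 0.17 did not pass the test (SE, limma, Benjamini-Hochberg adjusted p = 0.131). Of REST and 5 corepressors 4 rose, RCOR2 (1.03) and KDM1A (0.64) the most, where 32.5% of all genes tested rose.

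Some markers of neurons and other cell types rose as well, where 32.5% of all genes tested rose and 25.9% fell. Of 11 neuron markers 5 could be tested and all 5 rose (RBFOX3, which passed the filter through its butyrate values, by 3.20, INA by 2.94, MAP2 by 2.74, DCX by 2.14 and TUBB3 by 1.14 on the log2 scale). The list summed to 118 to 125 FPKM in control, of which TUBB3 made up 113 to 120, and to 279 to 313 after butyrate, of which TUBB3 made up 247 to 268. GAP43 was listed at 0 in all cultures, and NEFL, NEFM, ELAVL3, ELAVL4 and STMN2 stayed at 0.175 FPKM or lower. Of 10 neuroendocrine markers 4 could be tested, of which CHGA (3.03) and SCG5 (3.25) rose and 2 did not pass. That list summed to 3.17 to 4.33 FPKM in control and 28.0 to 31.9 after butyrate. Most of the latter came from SCG5 (20.7 to 22.7 FPKM) and CHGA (6.81 to 9.45). The list's defining factors INSM1 and NEUROD1 were listed at 0 in all cultures.

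Of 6 glial markers 3 could be tested, of which S100B rose (1.38) and 2 did not pass, with SOX10 at 0.0970 FPKM or lower in all cultures. The glial sum was 8.11 to 10.4 FPKM in control and 23.0 to 24.2 after butyrate, mostly from S100B (7.30 to 9.47 and 20.9 to 23.2). Of 6 immune markers 2 could be tested, of which CD68 rose (0.92) and CD14 did not pass, with PTPRC listed at 0 in all cultures. The immune sum was 5.28 to 7.15 and 7.23 to 9.48 FPKM, mostly from CD14 (4.45 to 6.65 and 5.97 to 8.16). Of 8 epithelial markers 6 rose and 1 fell, and their sum, mostly from KRT8 and KRT19, went from 2417 to 2527 FPKM to 5041 to 5123. All 8 fibroblast markers rose, and their sum, mostly from VIM and COL1A1, went from 4356 to 4512 FPKM to 6374 to 6715. The part of these lists in the changes of the fusion genes was not tested.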

How the data were processed

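RNA of 3 butyrate and 3 control REPC cultures had been sequenced as paired ends from an Illumina TruSeq kit. Per the labels the authors used Trim Galore 0.4.1, STAR and Cufflinks with the genome build UMD 3.1, kept uniquely mapped reads and deposited the FPKM of each gene with its confidence bounds. Reads of near-identical copies could be lost in this way, which could bear on VAMP7 with its separate entries. Whether other members such as STX1A were affected was not tested. How strand was treated is not given in the sources used here, so fragments of overlapping genes cannot be told apart. Chromosomes were assigned by the RefSeq names of the genes on each sequence, and 62 of the 63 entries matched that table (ARS-UCD2.0), which gave names only.

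The FPKM tables were joined by position and the deposited FPKM were tested as log2(FPKM + 0.1) in limma 3.58.1 (R 4.3.3), its variance prior following the mean. This covered 15813 genes that reached 0.1 in mean FPKM and had no failed estimate. The step was tested on simulated data. Both calls are corrected over all genes tested, and the DEG call uses the thresholds of the study's methods. The confidence bounds imply about 5756613 to 6186808 effective fragments per culture, and 9 tested members had a control mean under 10 fragments, which limits the precision of their fold changes.

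Per-culture values were given for every DEG, for members that passed 0.05 after adjustment with a change of more than 1 on the log2 scale, and for a core of neuronal and general genes. Other members were given by range and counts. A few members and markers enter the counts but are not reported here by name. The rules, classes and lists were chosen with earlier results of these data known. Alternatives were pseudocounts, filters, TPM and quantile scaling, limma without the trend, other corrections, the omission of each culture and a replicate block. Leaving out genes with a TIMP gene inside or a control mean under 0.1, and summing the VAMP7 entries, was chosen after seeing the data.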

Additional observations from a re-analysis of the deposited data

How the results depend on the processing

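The 25 members that rose became 19 to 33 and the 7 that fell 5 to 8 over the alternatives, and 0 members were DEGs with a lower level in any of them. The 3 DEGs became 1 with a pseudocount of 1 (SYT5), 6 with Benjamini-Hochberg adjustment and the same fold change, and 2 to 3 with a culture left out. They became 2 (SYT5 and SYT11) with a pseudocount of 0.01, without the filter and without the trend. The median log2 fold change of the neuronal members (1.54) was 0.92 with a pseudocount of 1, 1.86 after rescaling to TPM, 1.14 with quantile normalization and 1.45 to 1.63 with a culture left out. Without the members whose control mean was under 0.1 FPKM, this median was 1.43. That of the general members (0.12) was 0.24 with TPM. The difference of 1.42 was 0.81 with a pseudocount of 1, 1.27 with a mean of at least 1 FPKM, 1.62 with TPM, 1.00 with quantile normalization and 1.33 to 1.50 with a culture left out. The causes were not tested.

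Over the 15813 genes TPM moved the median log2 fold change by 0.12 and quantile normalization by -0.15. Among the 49 members the calls were 25 higher and 7 lower as deposited (78.1% higher), 31 and 5 with TPM (86.1%) and 20 and 8 with quantile normalization (71.4%), and the 33 above include members that passed the filter only as TPM. With TPM the calls of SNAP29 (0.25), STX5 (0.21), STX6 (0.38), STX17 (0.48), SYTL2 (0.35) and VAMP2 (0.36) were gained, as were those of SYTL3 (-1.98) and STX19 (-2.23) with quantile normalization and of STX19 (-0.60) with a pseudocount of 1. With TPM, STX2, STX11, SYTL4 and VAMP7 on chromosome X changed from below to above 0 without passing the test. Of the 357 values of the 26 named members with a fit, 337 had the same sign and the same call. The 4 that reversed were all of VAMP8, at -0.05 without control culture 1, control culture 2 or butyrate culture 3 and -0.07 without butyrate culture 2. The replicate numbers did not pair the cultures (correlations of 0.0228, -0.00431 and 0.00177). With the replicate block the DEGs were 2. SYN3 was no longer one (limma, Bonferroni-adjusted p = 0.0735), and STX19 passed the test (limma, Benjamini-Hochberg adjusted p = 0.0474). Control levels of a few fragments limit the fold changes of SYT2, SYT3, SYT7, SYT12 and SYN3.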
